A study of Saccharomyces cerevisiae with 6 samples.

Results

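The 32 autophagy genes described here are the ATG genes of budding yeast for core autophagosome formation, the cytoplasm-to-vacuole targeting (Cvt) pathway, the receptors of selective autophagy and the breakdown of delivered material in the vacuole. They were chosen by systematic name, and all 32 were found among the 7126 features of the deposited table. Each carries an ATG symbol in the RefSeq annotation, and together they lie on 13 chromosomes. In autophagy a cup of membrane grows around cytoplasm or an organelle, closes into an autophagosome and fuses with the vacuole, where the content is degraded. The Atg1 kinase complex starts the cup, vesicles with the scramblase Atg9 seed it, phosphatidylinositol 3-phosphate recruits the lipid transfer protein Atg2, and a ubiquitin-like conjugation system fixes Atg8 to the membrane lipid phosphatidylethanolamine. In rich medium the Cvt pathway uses most of the same proteins to carry hydrolases to the vacuole, and starvation is known to raise both the process and the transcripts of several ATG genes, ATG8 above all.

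The mutant strain is labelled mms21RINGD. Its allele is one of MMS21, whose product is a ligase for SUMO, a small protein that is joined to other proteins and changes what they do; the labels do not spell out what RINGD stands for. It is set against wild type (WT) of strain W303, and the labels give no separate background for the mutant strain. Each genotype has 3 libraries of ribosome-depleted total RNA from cells in exponential growth (optical density 0.6) in rich medium with added amino acids. The labels do not say whether replicates were separate cultures or how many isolates of the mutant were used, and p-values therefore measure only the spread between these libraries, which may be technical. In bulk RNA a change in every cell cannot be told apart from a larger one in some cells. MMS21 itself had 16.6, 12.9 and 13.5 RPKM in the mms21RINGD libraries, against 3.23, 3.04 and 2.18 RPKM in WT. RPKM is a read number scaled to gene length and to the reads of the library, and such a value cannot tell which stretch of MMS21 the reads came from. Depth read back from the values was 19.3 to 24.0 M reads in mms21RINGD and 20.9 to 24.6 M reads in WT. Among the WT libraries replicate 1 stood apart: the median chi-square statistic against replicates 2 and 3 was 15.1 and 20.1 times that of counting noise, while the other pairs of one genotype lay at 1.63 to 2.14 times.

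The RNA of most autophagy genes was at a low level. Their median level over the 6 libraries was 9.35 RPKM, against 24.1 RPKM for the 6731 features tested (a mean of at least 1 RPKM), and 27 of the 32 lay below that median. All 32 passed the filter. Each held between 23 and 2162 reads in a library, and no 50-base window of any of them occurs a second time in the reference genome. The only annotated overlap was of 24 bases between ATG29 and the opposite-strand gene SET6; the strand setting of the counting is not given in the sources used here.

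In mms21RINGD 26 of the 32 autophagy genes were higher and none was lower than in WT, although with quantile normalization, where 20.4% of all features were called higher, 13 were higher and 3 lower. The call is an adjusted p under 0.05 in limma on log2(RPKM + 1), a moderated linear model, with Benjamini-Hochberg adjustment over all features tested. No member was lower at an unadjusted p under 0.05 in limma either. Voom weights on the recovered reads gave the same counts of 26 and 0, and called 46.5% of the 5902 features in that fit higher. In the main fit 42.7% of all features were called higher and 10.9% lower, or 53.6% in either direction. The median log2 fold change of the members was 0.74, against 0.24 for all features, and 29 members lay above 0.24. In 27 members every mms21RINGD library exceeded every WT library, which held for 50.1% of all features; in none was every mms21RINGD library below every WT library, which held for 14.3%. A ratio of mean RPKM of at least 2 together with the call was reached by 11 members and by 10.3% of all features. The 6 genes not called were ATG31, ATG27, ATG14, ATG12, ATG10 and ATG5. Each log2 fold change is a difference of mean log2(RPKM + 1), mms21RINGD minus WT, given with its standard error after ±; because of the added 1 it is too small for genes at a few RPKM. Folds are ratios of mean RPKM.

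The size and number of these differences rest on how the libraries are scaled, and in some members so does the direction. Median-of-ratios scaling put the middle of all features at a log2 fold change of -0.00096, and 21 members were called higher and 1, ATG27, lower, beside 25.4% of all features called higher. With quantile normalization, where the median of all features was -0.10, 13 were higher and 3 lower (ATG27, ATG12 and ATG10). Of all features 20.4% were then called higher, and 37.1% of all calls were in that direction. The 13 genes ATG1, ATG29, ATG11, ATG23, ATG8, ATG3, ATG19, ATG34, ATG39, ATG40, ATG33, ATG26 and ATG22 were called higher under each scaling and in each other alternative that tested all 32 members. How many of all features passed every one of these fits was not counted. That share cannot exceed the 20.4% called higher with quantile normalization. Quantile normalization lowered the log2 fold changes of some of the 13 genes by over 1.5 times: ATG1 was then at 0.47, ATG29 at 0.41, ATG11 at 0.21, ATG23 at 0.41, ATG3 at 0.51, ATG34 and ATG39 at 1.10 and ATG26 at 0.41.

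**Figure D1:**
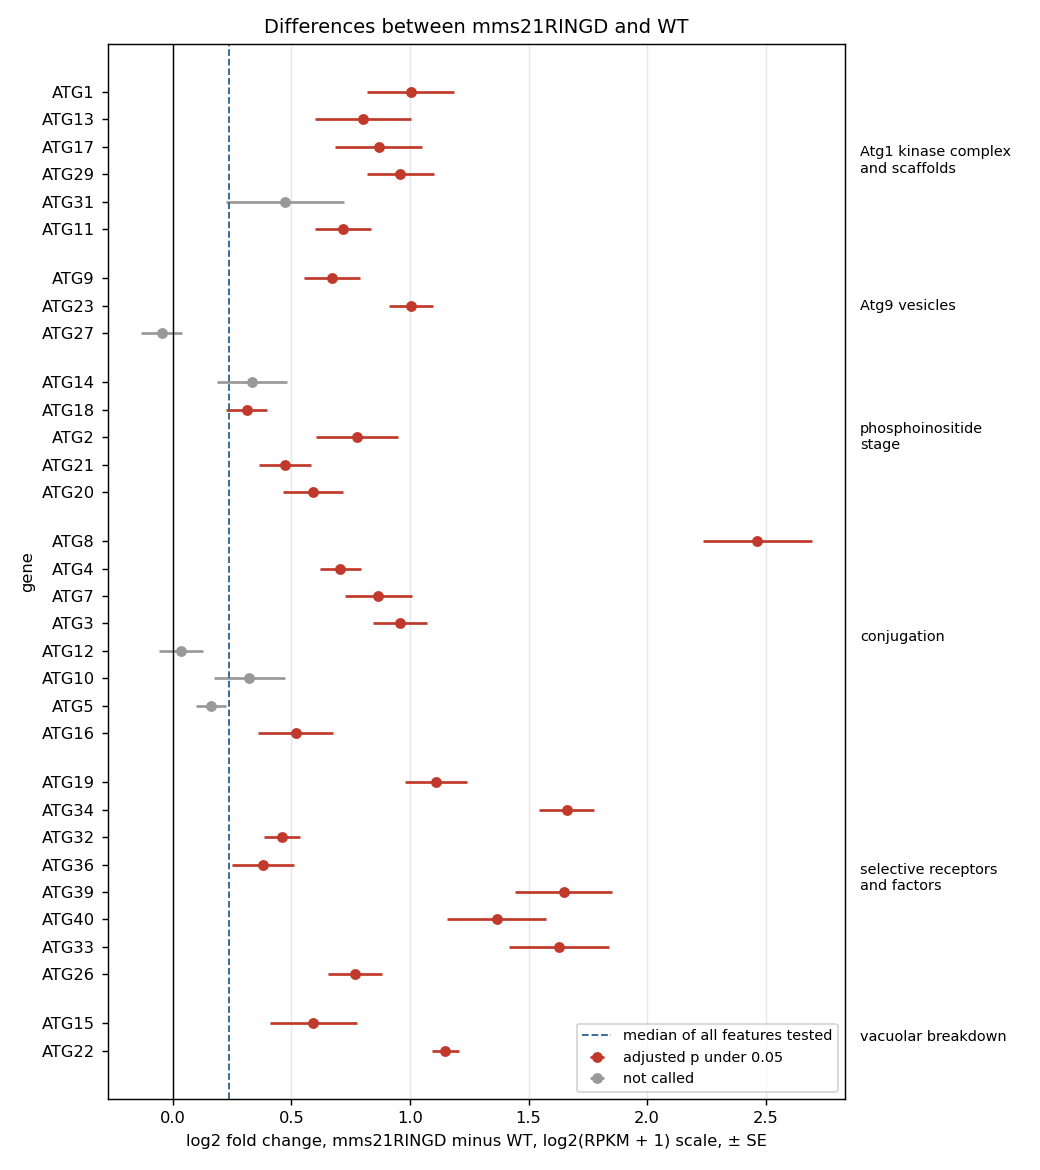
Log2 fold change of each autophagy gene (x axis, mms21RINGD minus WT on the log2(RPKM + 1) scale, with its standard error as a bar), grouped by role. Red points passed adjusted p under 0.05, grey points did not, and the dashed line is the median of all features tested, 0.24; ATG8 lies farthest right at 2.47, and ATG27 is the only gene left of 0 (others lie there too when libraries are scaled by median of ratios or by quantiles).

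WT replicate 1 lay toward the mutant in most of these genes. It was the highest WT library in 28 of the 32, against 64.7% of all features. Among the 26 called genes its place between the other WT libraries and the mutant, on the log2(RPKM + 1) scale, was 40.8% of the way at the median and ran from -10.6% (ATG4), away from the mutant, to 76.7% (ATG15). For all features called higher the median was 37.1%. Summed over the 32 genes, the mms21RINGD libraries held 535, 564 and 568 RPKM, against 381 RPKM in WT replicate 1 and 299 and 290 in WT replicates 2 and 3. Without WT replicate 1, 30 members were called higher, with ATG31, ATG14, ATG10 and ATG5 added, and the median log2 fold change was 0.86; of all features 57.4% were called higher in that fit.

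**Figure D2:**
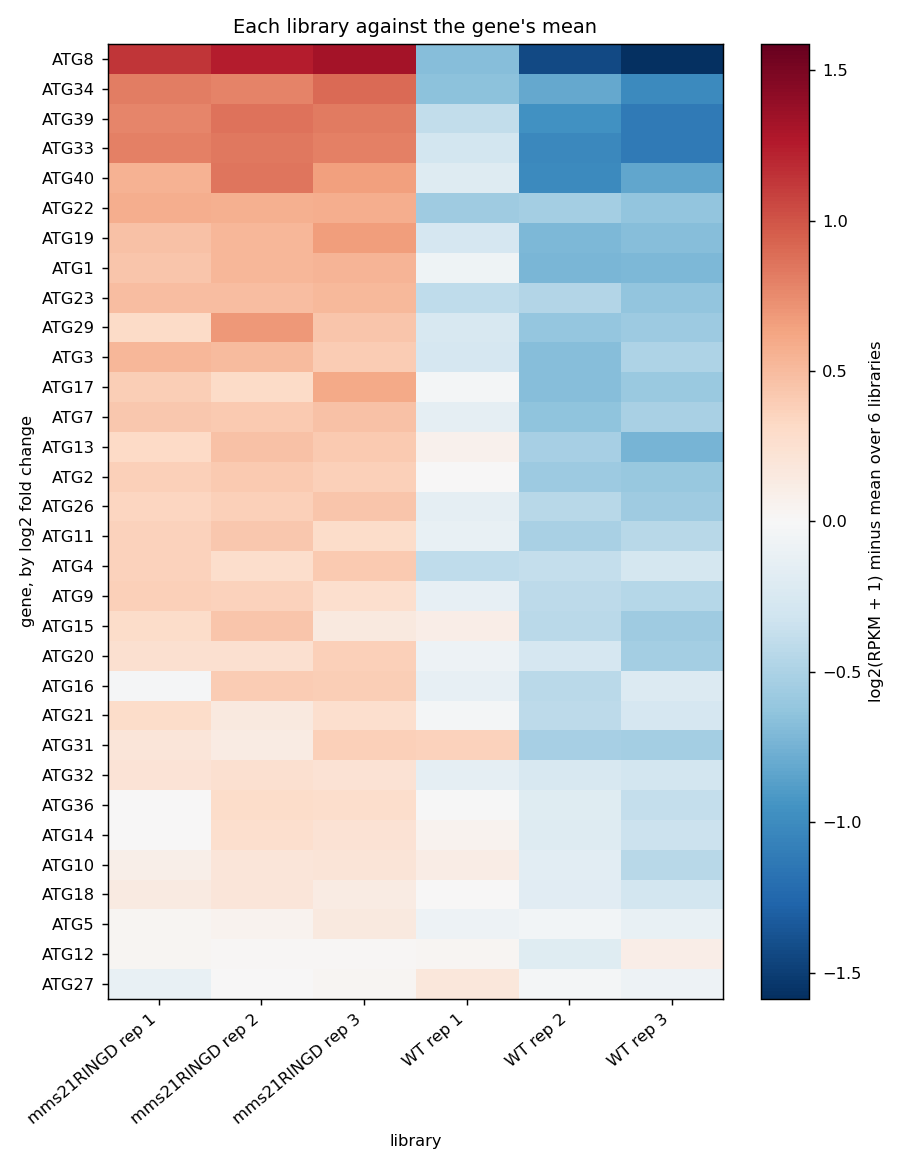
Each cell is the log2(RPKM + 1) of a gene in a library minus the mean of that gene over the 6 libraries (red above, blue below), with genes ordered by log2 fold change and libraries by genotype. The 3 mms21RINGD columns are red for nearly all genes, WT replicates 2 and 3 are blue for nearly all, and WT replicate 1 is paler than they are in most rows.

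The 300 bases before the annotated start of 6 genes are shown for orientation: the 4 members with the largest log2 fold changes (ATG8, ATG34, ATG39 and ATG33), ATG22, which rose with the smallest standard error, and ATG27, which is the most abundant member and was not called. They are read 5′ to 3′ toward the start codon from the RefSeq genome, assembly R64, which is the sacCer3 build named in the submitters' processing notes. Capitals mark matches on either strand to AGGGG (the stress response element, bound by Msn2 and Msn4 and similar to the sites of Gis1 and Rph1), GCCGCC (the core of the URS1 element of Ume6), GATAAG (the element of Gln3 and Gat1) and TGACTC (the element of Gcn4).
ATG8 (chrII:80732-81031, minus strand): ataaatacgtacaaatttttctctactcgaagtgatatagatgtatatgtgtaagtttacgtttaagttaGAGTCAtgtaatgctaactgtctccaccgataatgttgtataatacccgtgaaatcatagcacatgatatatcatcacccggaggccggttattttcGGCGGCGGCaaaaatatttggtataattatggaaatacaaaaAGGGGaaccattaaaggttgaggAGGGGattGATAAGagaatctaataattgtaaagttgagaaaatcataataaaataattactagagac
ATG34 (chrXV:165414-165713, plus strand): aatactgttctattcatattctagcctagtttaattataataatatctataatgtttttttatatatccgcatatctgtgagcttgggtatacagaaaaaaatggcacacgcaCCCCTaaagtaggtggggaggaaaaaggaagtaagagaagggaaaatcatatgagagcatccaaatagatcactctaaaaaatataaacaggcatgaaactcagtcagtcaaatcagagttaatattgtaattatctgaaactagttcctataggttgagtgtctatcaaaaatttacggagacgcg
ATG39 (chrXII:758834-759133, minus strand): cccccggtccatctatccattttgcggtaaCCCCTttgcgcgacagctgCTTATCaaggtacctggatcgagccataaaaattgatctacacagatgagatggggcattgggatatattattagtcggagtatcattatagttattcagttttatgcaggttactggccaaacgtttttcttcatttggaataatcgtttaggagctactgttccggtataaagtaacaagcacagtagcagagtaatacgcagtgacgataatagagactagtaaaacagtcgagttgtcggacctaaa
ATG33 (chrXII:840021-840320, plus strand): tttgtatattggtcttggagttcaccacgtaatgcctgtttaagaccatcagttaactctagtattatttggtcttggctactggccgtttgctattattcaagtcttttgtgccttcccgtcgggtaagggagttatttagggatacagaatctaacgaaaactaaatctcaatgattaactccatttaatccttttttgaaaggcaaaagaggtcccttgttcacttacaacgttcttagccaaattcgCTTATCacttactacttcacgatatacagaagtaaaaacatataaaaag
ATG22 (chrIII:56528-56827, minus strand): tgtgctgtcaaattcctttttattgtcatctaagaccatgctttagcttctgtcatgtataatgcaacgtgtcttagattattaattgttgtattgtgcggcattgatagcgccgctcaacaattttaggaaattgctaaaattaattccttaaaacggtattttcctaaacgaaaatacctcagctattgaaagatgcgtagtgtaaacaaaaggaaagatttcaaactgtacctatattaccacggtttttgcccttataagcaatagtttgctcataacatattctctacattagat
ATG27 (chrX:90098-90397, minus strand): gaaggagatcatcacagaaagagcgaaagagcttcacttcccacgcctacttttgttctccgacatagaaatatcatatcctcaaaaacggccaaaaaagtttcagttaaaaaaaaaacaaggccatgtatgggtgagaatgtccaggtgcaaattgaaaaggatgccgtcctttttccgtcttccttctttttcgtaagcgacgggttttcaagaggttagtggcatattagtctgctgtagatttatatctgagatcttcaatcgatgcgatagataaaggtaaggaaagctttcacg

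The ATG8 window held matches to all 4 motifs. It had 2 matches to AGGGG at -91 and -68 (position of the first base relative to the start codon, whose first base follows -1), 2 overlapping matches to GCCGCC at -133 and -130, and 1 each to GATAAG at -60 and TGACTC at -230. ATG34 and ATG39 each had 1 match to AGGGG, at -187 and -270, ATG39 and ATG33 each had 1 to GATAAG, at -251 and -49, and the ATG22 and ATG27 windows had none to any of the 4. Over the 32 windows, AGGGG was found in 10, or 31.25%, against 22.2% of 5987 windows of the same length. GATAAG was found in 12, or 37.5%, against 14.7%. TGACTC was found in 4, or 12.5%, against 7.77%, and GCCGCC in 2 (ATG8 and ATG19), or 6.25%, against 5.21%. Among members with AGGGG 9 of 10 were called higher, with a median log2 fold change of 0.86, and among members without it 17 of 22, with 0.71. Of all windows tested 60.6% were called higher with AGGGG and 40.6% without, with medians of 0.44 and 0.21. Members with GATAAG were called higher in 11 of 12 cases and members without it in 15 of 20, with medians of 0.83 and 0.74. Of all windows tested 51.1% were called higher with GATAAG and 44.1% without, with medians of 0.30 and 0.24. These counts are from the main fit. With quantile normalization 20.4% of all features were called higher. Among members with GATAAG, ATG29, ATG8, ATG19, ATG39, ATG40 and ATG33 were then called higher. ATG9, ATG14, ATG18, ATG4, ATG32 and ATG15 were not called. Among members with AGGGG, ATG29, ATG8, ATG19, ATG34, ATG39 and ATG26 were called higher. ATG9, ATG20 and ATG32 were not called, and ATG10 was lower. All windows were not split under that scaling. A match is a description of letters and not a site.

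The Atg1 kinase complex starts autophagy, and 5 of its 6 genes rose in mms21RINGD (3 with quantile normalization). The share of all features called higher was 42.7%, or 20.4% with quantile normalization. ATG1 (YGL180W), the kinase gene itself, had 10.6, 11.2 and 11.4 RPKM in mms21RINGD, against 7.13, 4.18 and 4.19 RPKM in WT replicates 1, 2 and 3. The groups did not overlap, and the log2 fold change was 1.00 ± 0.18 (limma adjusted p = 0.00532), a 2.14-fold difference. ATG13 (YPR185W), whose protein joins Atg1 to the scaffold and is phosphorylated under TORC1, had 11.8, 13.2 and 12.6 RPKM in mms21RINGD and 9.69, 6.07 and 5.13 RPKM in WT. It rose by 0.80 ± 0.20 on the log2 scale (limma adjusted p = 0.0163), but was not called with quantile normalization (0.30), nor when WT replicate 2, mms21RINGD replicate 2 or mms21RINGD replicate 3 was left out.

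Atg17, Atg29 and Atg31 form the scaffold on which the starvation-induced complex assembles, and their transcripts differed in how firmly they moved. ATG17 (YLR423C) measured 9.40, 8.83 and 11.01 RPKM in mms21RINGD and 6.74, 3.97 and 4.26 RPKM in WT, a difference of 0.87 ± 0.18 (limma adjusted p = 0.00923), not called with quantile normalization (0.30). ATG29 (YPL166W) measured 9.62, 12.8 and 10.7 RPKM in mms21RINGD and 6.20, 4.62 and 4.73 RPKM in WT, and its log2 difference was 0.96 ± 0.14 (limma adjusted p = 0.00233). Its overlapping neighbour SET6 also rose, by 0.46 ± 0.09 on the log2 scale (limma adjusted p = 0.00545). For ATG31 (YDR022C) the mms21RINGD libraries had 10.7, 10.2 and 12.3 RPKM, and the WT libraries 12.2, 6.08 and 5.998 RPKM. WT replicate 1 lay inside the mutant range there, the gene was not called (0.47 ± 0.25, limma adjusted p = 0.149), and without that library its log2 fold change was 0.77. ATG11 (YPR049C), the scaffold gene that takes this place in selective autophagy, rose 1.73-fold, with 10.97 to 12.1 RPKM in mms21RINGD and 5.83 to 8.002 RPKM in WT (0.72 ± 0.12 on the log2 scale, limma adjusted p = 0.00359).

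Genes of the Atg9 vesicles split: 2 of 3 rose, against 42.7% of all features (1 higher and 1 lower with quantile normalization). ATG9 (YDL149W), which encodes the lipid scramblase of the vesicles, had 7.33, 7.31 and 6.74 RPKM in mms21RINGD and 4.87, 3.82 and 3.69 RPKM in WT, without overlap (log2 fold change 0.67 ± 0.12, limma adjusted p = 0.00433; 0.06 and not called with quantile normalization). ATG23 (YLR431C), whose peripheral membrane protein helps form them, had 9.53, 9.53 and 9.67 RPKM in mms21RINGD and 4.65, 4.39 and 3.82 RPKM in WT, a 2.23-fold rise (log2 fold change 1.00 ± 0.09, limma adjusted p = 0.000345). ATG27 (YJL178C), a transmembrane protein gene of the same traffic, was the most abundant of the 32 in both genotypes, with 59.9, 65.6 and 66.7 RPKM in mms21RINGD and 73.6, 63.8 and 61.7 RPKM in WT. The libraries overlapped and the gene was not called (-0.05 ± 0.09, limma adjusted p = 0.663), but both other scalings put it lower (-0.30 by median of ratios, -0.24 by quantiles). Of the summed RPKM of the 32 genes, a share that no factor per library can change, ATG27 held 11.5% ± 0.298 in mms21RINGD and 20.6% ± 1.16 in WT (SD, n = 3 each). Such a share falls when the other members rise more than the gene does, so it is not a level.

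In the phosphoinositide stage 4 of 5 genes were called higher, against 42.7% of all features, with smaller differences (0.31 to 0.78). ATG2 (YNL242W), the gene of the lipid transfer protein, had 8.52 to 8.79 RPKM in mms21RINGD and 3.85 to 6.38 RPKM in WT (1.82-fold, 0.78 ± 0.17 on the log2 scale, limma adjusted p = 0.0106). Its partner gene ATG18 (YFR021W), of a protein that binds phosphatidylinositol 3-phosphate, had 20.3, 21.1 and 20.2 RPKM in mms21RINGD and 18.4, 16.1 and 14.8 RPKM in WT. Its difference was 0.31 ± 0.09 (limma adjusted p = 0.0248), close to the 0.24 of all features. ATG18 was no longer called on removing any 1 library except WT replicate 1. ATG21 (YPL100W), a second binder of this lipid, and ATG20 (YDL113C), a sorting nexin gene of the Cvt pathway, rose 1.42-fold and 1.55-fold (log2 fold changes 0.47 and 0.59). ATG21 lay at 13.1 to 14.4 RPKM in mms21RINGD and 8.48 to 11.4 RPKM in WT, and ATG20 at 12.7 to 14.05 RPKM in mms21RINGD and 6.92 to 9.97 RPKM in WT. None of the 4 was called with quantile normalization, where ATG18 turned to -0.048. By median of ratios ATG18 and ATG21 were not called. ATG21 was not called without mms21RINGD replicate 3 either. ATG14 (YBR128C), the subunit that directs the lipid kinase to autophagy, was the least abundant member in mms21RINGD, with 3.91, 4.86 and 4.75 RPKM there and 4.08, 3.24 and 2.85 RPKM in WT. It was not called (0.33 ± 0.15, limma adjusted p = 0.0949), rested on 64 to 121 reads a library and turned to -0.28 with quantile normalization.

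**Figure D3:**
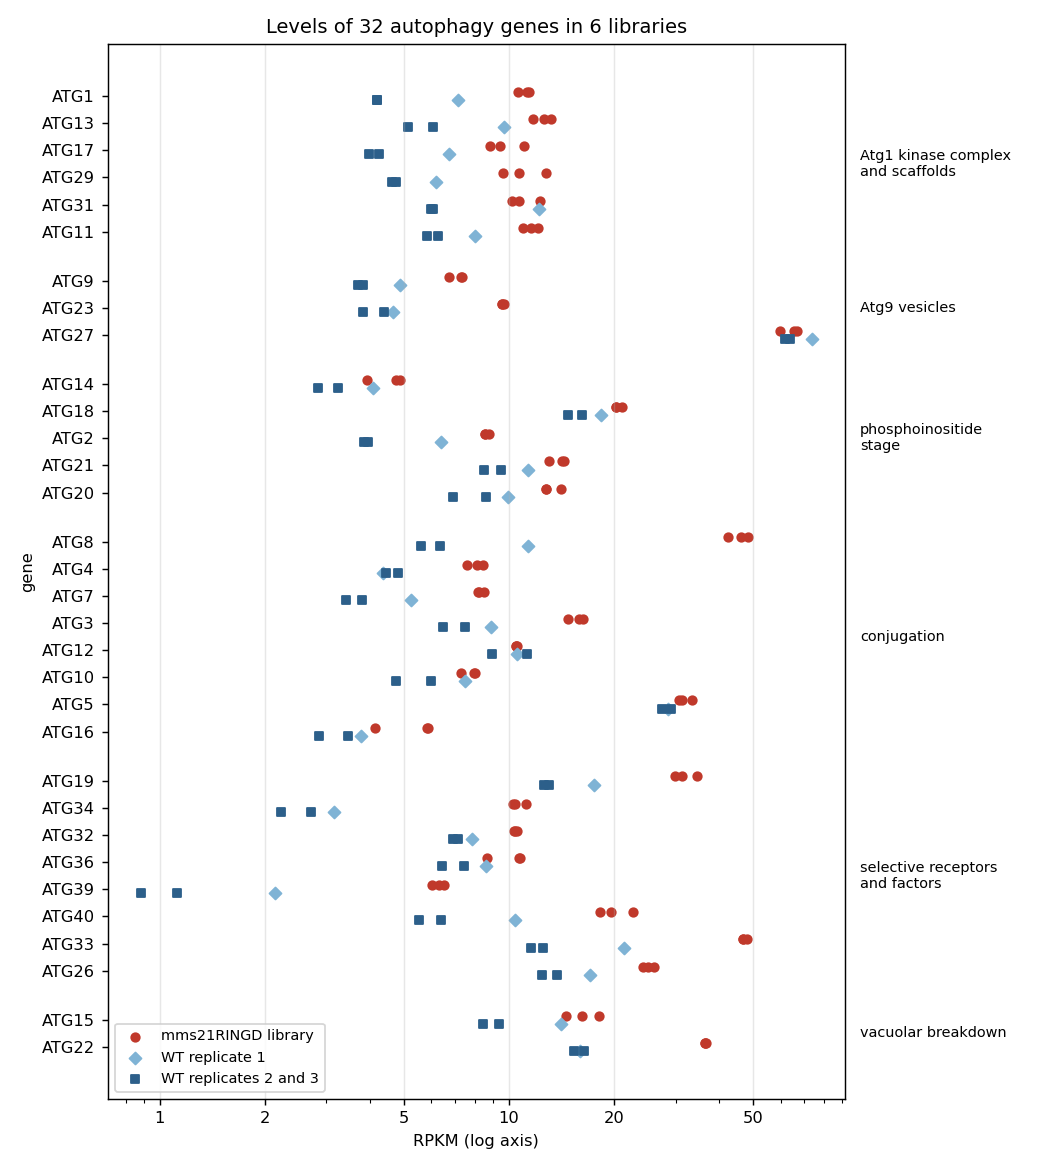
RPKM of each autophagy gene in each library (x axis, log scale), with mms21RINGD libraries as red circles above and WT libraries below, WT replicate 1 as a light diamond and WT replicates 2 and 3 as dark squares. The red circles of ATG8, at 42.4 to 48.3 RPKM, lie farthest from their WT libraries, at 5.59 to 11.4, and those of ATG27 and ATG12 lie among theirs.

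Of the 8 conjugation genes 5 rose and none fell, against 42.7% of all features called higher and 10.9% lower. With quantile normalization 2 were higher and 2 lower, against 20.4% of all features called higher. ATG8 (YBL078C) had the largest log2 fold change of the 32 members. It encodes the ubiquitin-like protein that is fixed to the growing membrane and holds the cargo receptors there. The mms21RINGD libraries had 42.4, 46.2 and 48.3 RPKM, and the WT libraries 11.4, 6.36 and 5.59 RPKM. Every mutant library thus lay well above every WT library, and WT replicate 1 above the other WT libraries. The log2 fold change was 2.47 ± 0.23 (limma adjusted p = 0.00036) and the ratio of means 5.87, or 7.64 without WT replicate 1. The log2 fold change ran from 2.01 to 2.74 over the alternatives. By level ATG8 held rank 3 of 32 in mms21RINGD and rank 13 in WT, and its share of the summed RPKM was 8.20% ± 0.292 in mms21RINGD and 2.34% ± 0.558 in WT (SD, n = 3 each). The gene is short (354 bases, chromosome II, 80378 to 80731, minus strand, R64) and the values came from 289 to 393 reads in the mms21RINGD libraries and 43 to 99 in WT.

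The genes of the enzymes that act on Atg8 had smaller log2 fold changes, a difference between genes that was not tested. ATG3 (YNR007C), which encodes the conjugating enzyme for Atg8, had 16.2, 15.8 and 14.8 RPKM in mms21RINGD and 8.88, 6.47 and 7.50 RPKM in WT (log2 fold change 0.96 ± 0.11, limma adjusted p = 0.000961). ATG7 (YHR171W), of the activating enzyme shared by Atg8 and Atg12, had 8.23, 8.13 and 8.48 RPKM in mms21RINGD and 5.23, 3.41 and 3.79 RPKM in WT (0.87 ± 0.14, limma adjusted p = 0.00339; 0.27 and not called with quantile normalization). ATG4 (YNL223W), of the protease that trims Atg8 and also releases it from the lipid, had 8.11, 7.57 and 8.43 RPKM in mms21RINGD and 4.35, 4.45 and 4.81 RPKM in WT. Its log2 fold change was 0.71 ± 0.09 (limma adjusted p = 0.00116), and it was not called with quantile normalization (0.10). WT replicate 1 was the lowest WT library for ATG4.

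Genes of the second conjugate, in which Atg12 is joined to Atg5 and bound by Atg16, were called in 1 of 4 cases, ATG16. The share of all features called higher was 42.7%. ATG12 (YBR217W) had 10.5, 10.5 and 10.4 RPKM in mms21RINGD and 10.6, 8.96 and 11.2 RPKM in WT, with the mutant values inside the WT range (0.03 ± 0.09, limma adjusted p = 0.77). ATG5 (YPL149W) had 30.7, 31.3 and 33.5 RPKM in mms21RINGD and 28.4, 29.1 and 27.5 RPKM in WT. These groups did not overlap, but the difference of 0.16 ± 0.06 was not called (limma adjusted p = 0.0668) and turned negative in both other scalings (-0.087 by median of ratios, -0.13 by quantiles). ATG10 (YLL042C), the gene of the conjugating enzyme for Atg12, was not called (0.32 ± 0.15, limma adjusted p = 0.108), with 7.31 to 7.98 RPKM in mms21RINGD and 4.75 to 7.49 RPKM in WT. ATG16 (YMR159C) rose by 0.52 ± 0.16 (limma adjusted p = 0.0322) on 36 to 64 reads in mms21RINGD and 27 to 42 in WT, but it was not called with either of the scalings named above or when WT replicate 2 or 3 or mms21RINGD replicate 2 or 3 was removed. ATG5 took 5.73% ± 0.180 of the summed RPKM in mms21RINGD and 8.89% ± 1.24 in WT (SD, n = 3 each). That share depends on the other members too, and the RPKM of ATG5 itself was not lower in mms21RINGD.

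All 8 genes of selective receptors and factors were called higher, against 42.7% of all features. Their median log2 fold change was 1.24, against 0.24 for all features. Receptors bind a cargo and Atg8 at once and so decide what is enclosed. With quantile normalization 6 of the 8 were still called, against 20.4% of all features, and ATG32 (YIL146C) and ATG36 (YJL185C) turned to -0.032 and -0.12. Without WT replicate 1 all 8 were called, with a median of 1.43, against 57.4% of all features and a median of 0.29.

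The receptor genes ATG34 and ATG19 lie close together on chromosome XV. ATG34 (YOL083W; 165714 to 166952, plus strand, R64), of the receptor that takes alpha-mannosidase to the vacuole under starvation, had 10.4, 10.2 and 11.2 RPKM in mms21RINGD and 3.15, 2.70 and 2.23 RPKM in WT. The mutant libraries were all above 10 RPKM and the WT libraries all below 4, a 3.94-fold difference (log2 fold change 1.66 ± 0.12, limma adjusted p = 0.000127). ATG19 (YOL082W; 168727 to 169974, plus strand), of the receptor for the precursor of aminopeptidase I and for alpha-mannosidase, had 29.8, 31.3 and 34.5 RPKM in mms21RINGD and 17.5, 12.6 and 13.02 RPKM in WT (2.22-fold, log2 fold change 1.11 ± 0.13, limma adjusted p = 0.000952). By level ATG34 held rank 19 in mms21RINGD and rank 31 in WT, while ATG19 held rank 5 in mms21RINGD and rank 7 in WT.

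Receptors for the endoplasmic reticulum rose too. ATG39 (YLR312C), for the nuclear envelope and the reticulum around it, had 6.03, 6.50 and 6.31 RPKM in mms21RINGD and 2.14, 1.12 and 0.885 RPKM in WT. It was the least abundant member in WT, with 63, 28 and 23 reads there (exact Poisson intervals at 95% reached down to 14.6 and up to 80.6 reads and cover counting error only), against 139, 187 and 152 reads in mms21RINGD. Its log2 fold change was 1.65 ± 0.20 (limma adjusted p = 0.00116) and its ratio of means 4.55, or 6.26 without WT replicate 1. With a pseudocount of 0.1 RPKM the log2 fold change was 2.25 and with 5 RPKM it was 0.83. ATG40 (YOR152C), for the cortical and cytoplasmic reticulum, had 18.2, 22.7 and 19.7 RPKM in mms21RINGD and 10.4, 5.53 and 6.39 RPKM in WT, a 2.71-fold difference (log2 fold change 1.36 ± 0.21, limma adjusted p = 0.00272).

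For mitochondria the data were uneven. ATG33 (YLR356W), whose outer membrane protein takes part in mitophagy in the post-log phase, had 46.8, 48.1 and 46.7 RPKM in mms21RINGD and 21.3, 12.5 and 11.5 RPKM in WT (3.12-fold, log2 fold change 1.63 ± 0.21, limma adjusted p = 0.00136). It was rank 2 by level in mms21RINGD and rank 5 in WT. ATG32, the mitophagy receptor itself, had 10.3, 10.6 and 10.4 RPKM in mms21RINGD and 7.82, 7.17 and 6.92 RPKM in WT, a 1.43-fold difference (0.46 ± 0.08, limma adjusted p = 0.00343) that was not called higher with quantile normalization. The peroxisome receptor gene ATG36 had 8.65, 10.8 and 10.7 RPKM in mms21RINGD and 8.61, 7.44 and 6.42 RPKM in WT. One mutant library thus lay next to WT replicate 1, and the call (0.38 ± 0.13, limma adjusted p = 0.045) was lost with no filter on low values, in either rescaling, and on removing WT replicate 2 or 3 or mms21RINGD replicate 2 or 3. ATG26 (YLR189C), a sterol glucosyltransferase gene whose product serves peroxisome turnover in the yeast Komagataella phaffii, rose 1.74-fold, with 24.2 to 25.95 RPKM in mms21RINGD and 12.5 to 17.02 RPKM in WT (0.77 ± 0.11, limma adjusted p = 0.00233).

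Both genes of vacuolar breakdown rose, against 42.7% of all features called higher (ATG22 alone when scaled by median of ratios or by quantiles). ATG22 (YCL038C), which encodes an exporter of amino acids from the vacuole, had 36.7, 36.4 and 36.5 RPKM in mms21RINGD and 16.02, 16.4 and 15.4 RPKM in WT. The WT libraries agreed closely here, WT replicate 1 included, and the difference was 2.29-fold (log2 fold change 1.15 ± 0.06, limma adjusted p = 4.37e-05). ATG15 (YCR068W), of the lipase that opens autophagic bodies, had 16.1, 18.05 and 14.5 RPKM in mms21RINGD and 14.1, 9.37 and 8.45 RPKM in WT. WT replicate 1 nearly met the lowest mutant library, and the call (0.59 ± 0.18, limma adjusted p = 0.0336) was lost with no filter, in both other scalings just named, and on removing any 1 library except WT replicate 1.

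Outside the 32 genes, other parts of the pathway were read from lists by the same fit. That fit called 42.7% of all features higher, against 20.4% with quantile normalization. Of 6 genes of the phosphatidylinositol 3-kinase and other ATG-numbered genes, 5 rose and none fell (4 higher and 1 lower with quantile normalization). ATG41, a gene of the Atg9 step, had 56.2, 58.8 and 53.9 RPKM in mms21RINGD and 28.9, 31.6 and 29.9 RPKM in WT (0.88 ± 0.07, limma adjusted p = 0.000151). The lipid kinase gene VPS34, ATG38 of the same complex and the sorting nexin gene SNX4 rose by 0.76, 0.82 and 0.78 on the log2 scale (limma adjusted p = 0.00112, 0.00131 and 0.0057), and with quantile normalization by 0.39, 0.27 and 0.40. All 4 cargo genes of the Cvt pathway rose (all but APE4 when scaled by median of ratios or by quantiles). AMS1, the alpha-mannosidase gene, had 28.8, 30.8 and 31.1 RPKM in mms21RINGD and 7.68, 5.43 and 5.07 RPKM in WT (4.99-fold, 2.16 ± 0.14, limma adjusted p = 9.36e-05). APE1, the aminopeptidase I gene, had 64.3, 70.3 and 66.4 RPKM in mms21RINGD and 27.3, 13.2 and 11.1 RPKM in WT (3.90-fold, 2.00 ± 0.30, limma adjusted p = 0.00246). LAP3 and APE4, further peptidase genes, rose 1.42-fold and 1.33-fold (log2 fold change of LAP3 0.51, or 0.25 by median of ratios and 0.31 by quantiles).

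Lists farther from the autophagosome lay nearer to all features. Among all features 42.7% were called higher (median log2 fold change 0.24), or 20.4% with quantile normalization (median -0.10). Of 13 genes of fusion with the vacuole 7 were higher and none lower (median log2 fold change 0.25, or -0.13 with quantile normalization, where 1 was higher and 4 lower). VTI1, a SNARE gene, had the smallest p among them (0.85 ± 0.07, limma adjusted p = 0.000245), and VPS33 (0.43), VAM7 (0.48) and MON1 (0.29) were called too; with quantile normalization VTI1 alone of these 4 was. Of 15 kinases and complexes upstream of Atg1, 8 were higher and none lower (median 0.26, or -0.13 with quantile normalization, with 3 higher and 5 lower). RIM15, a kinase gene of entry into quiescence, had 14.9, 15.7 and 14.7 RPKM in mms21RINGD and 8.53, 8.10 and 7.12 RPKM in WT (0.86 ± 0.08, limma adjusted p = 0.000445; 0.41 with quantile normalization). NPR2, SCH9 and TAP42 of the TORC1 pathway rose by 0.40, 0.27 and 0.37, but none of these 3 was called with quantile normalization. Of 12 transcriptional regulators of ATG genes 7 were higher and none lower (median 0.33, or -0.068 with quantile normalization, with 2 higher and 4 lower). The stress activator gene MSN4 rose by 0.76 ± 0.09 (limma adjusted p = 0.00115; 0.41 with quantile normalization), and RPH1, SIN3 and PHO23, of repressors of ATG genes, rose by 0.63, 0.44 and 0.39, again not called with quantile normalization. Among the other genes of proteins named with the 4 motifs, GAT1 (0.41), UME6 (0.35) and GIS1 (0.32) were called higher in the main fit. MSN2 (0.13), GLN3 (0.17) and GCN4 (-0.0041) were not called in it. By median of ratios only 3 of the 12 regulators were called higher, namely MSN4, RPH1 and SIN3. GAT1, UME6 and GIS1 therefore did not keep their calls there. Their own values with quantile normalization are not given here. MON1 and PHO23 were not called without mms21RINGD replicate 2 or 3, nor MON1 without mms21RINGD replicate 1 and PHO23 without WT replicate 2.

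**Figure D4:**
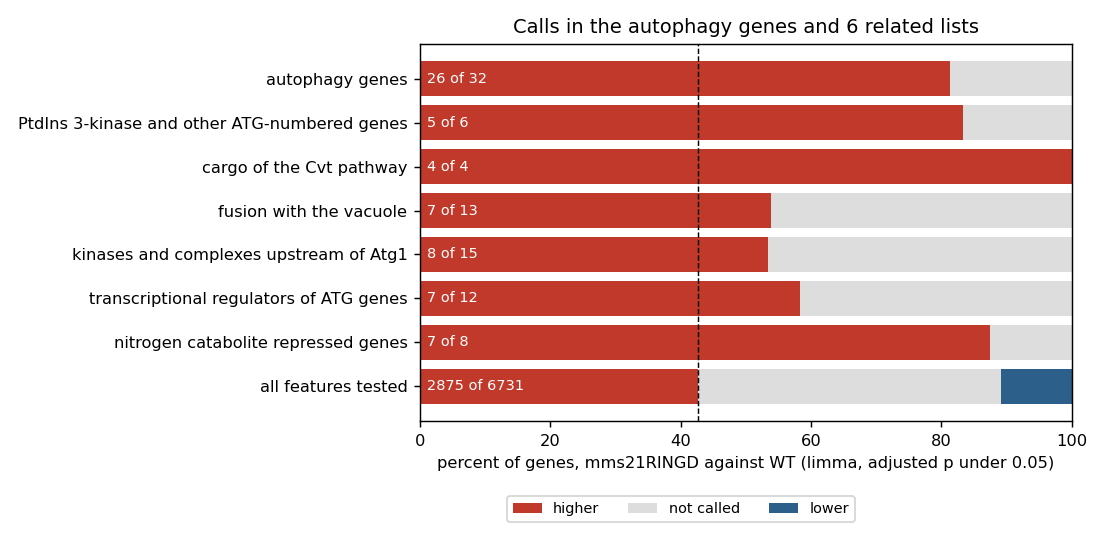
Percent of genes called higher (red), lower (blue) or not called (grey) in mms21RINGD against WT, for the 32 autophagy genes, 6 lists of related genes and all 6731 features tested. The dashed line is the 42.7% of all features called higher; 26 of the 32 autophagy genes and all 4 Cvt cargo genes were called higher, and no gene of these lists was called lower (with quantile normalization 3 autophagy genes and 14 list genes were).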

How the data were processed

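RNA of 3 mms21RINGD and 3 WT libraries was analysed from 1 table of RPKM values that the authors deposited, with groups and replicate numbers from the titles. The submitters' processing notes name the tools CASAVA 1.8.2 and TopHat2 2.0.8, the package edgeR 3.8.6 and the build sacCer3. No read counter, annotation or strand setting is named in the sources used here. Features were matched to RefSeq R64 by systematic name (6048) or symbol (114). Values of matched features were multiplied by gene length and by a depth per library that was chosen to make reads whole. Of the nonzero ones 99.8% then gave whole reads to within 0.02.

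RPKM values are not counts, so log2(RPKM + 1) was fitted by limma 3.58.1 (R 4.3.3; trend, no covariate, two-sided, Benjamini-Hochberg) for features averaging 1 RPKM or more. The fit was also run on simulated reads, with the outcome not reported here. Those reads had no shift across all features and no library set apart like WT replicate 1, so that run cannot speak to either. No exact permutation p under 0.1 can arise from 3 libraries against 3. The members and lists were chosen with earlier results of these data known, so no test over a list was made. Named were all 32 members, MMS21, up to 4 called genes with the smallest p of each list, and genes overlapping a member. GAT1, UME6, GIS1, MSN2, GLN3 and GCN4 were added after their values were seen. Alternatives were other pseudocounts (0.1 and 5 RPKM), no filter or one at 10 RPKM, median-of-ratios and quantile scaling, library totals that leave out structural and mitochondrial RNAs, limma robust or trend-free, voom weights on recovered reads, a replicate block, and removal of each library in turn.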

Additional observations from a re-analysis of the deposited data

How the results depend on the processing

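The count of autophagy genes called higher stayed within 1.5 times of 26 except with a filter at 10 RPKM, which tested 14 members and called 11, and with quantile normalization, which called 13. Members called lower were 3 after quantile normalization and 1 after median-of-ratios scaling. The median log2 fold change of the members was 0.50 with a pseudocount of 5 RPKM, 0.21 after quantile normalization and 0.51 after median-of-ratios scaling. Leaving out 1 library gave 20 to 30 members higher, 0 lower and medians from 0.67 to 0.86. The same fits called 27.6% to 57.4% of all features higher. The 6 other lists had 38 of 58 genes higher and 0 lower in all; median-of-ratios scaling gave 23 and 5, quantile normalization 18 and 14, and removal of 1 library 27 to 51 higher and 0 to 1 lower. These list counts were recomputed after seeing the data. The main fit called 42.7% of all features higher, median-of-ratios scaling 25.4%, quantile normalization 20.4% and the filter at 10 RPKM 39.5%. The cause of these shifts was not tested.

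Signs turned with median-of-ratios scaling for ATG12 (-0.20) and ATG5 (-0.087). With quantile normalization they turned for ATG31 (-0.018), ATG14 (-0.28), ATG18 (-0.048), ATG12 (-0.42), ATG10 (-0.25), ATG5 (-0.13), ATG16 (-0.12), ATG32 (-0.032), ATG36 (-0.12), VAM7 (-0.13), MON1 (-0.087), NPR2 (-0.0550), TAP42 (-0.012) and PHO23 (-0.00876). Leaving out 1 library turned ATG27 (range -0.096 to 0.028; 0.028 without WT replicate 1 and 0.00033 without mms21RINGD replicate 1) and ATG12 (range -0.0513 to 0.0975; -0.0513 without WT replicate 2). Called values that moved by over 1.5 times with direction and call unchanged, beside those given with the genes, were 0.57 for ATG17, 0.41 for ATG9, 0.65 for ATG23, 0.50 for ATG2, 0.45 for ATG4, 0.54 for ATG7, 0.29 for ATG16, 1.023 for ATG34, 0.30 for VAM7, 1.30 for MMS21 and 0.62 for DAL80 with a pseudocount of 5 RPKM. After median-of-ratios scaling they were 0.36 for ATG20, 0.23 for ATG32, 0.19 for VPS33, 0.26 for VAM7, 0.17 for NPR2, 0.19 for SIN3 and 0.40 for RPH1.

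With the replicate number as a block 23 members were called higher and 0 lower, and 27 and 0 genes of the other lists. That fit called 33.4% of all features higher, and ATG18, ATG16, ATG36, MON1 and PHO23 were then not called. Deviations of same-numbered libraries from their group means correlated at -0.14, 0.046 and -0.096. With 3 libraries a genotype these values cannot show whether same-numbered libraries shared a culture or a batch. The titles give only a replicate number. ATG16, ATG39 and DAL80 rested on as few as 27, 23 and 16 reads in a WT library, and the effect of depth on their calls was not tested.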

Other observations

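Genes under nitrogen catabolite repression, which Gln3 and Gat1 activate when good nitrogen sources run out, were read as a further list. Of 8 such genes 7 were higher in mms21RINGD and none lower, with a median log2 fold change of 0.74, against 42.7% of all features called higher and a median of 0.24. With quantile normalization 5 were higher and none lower (median 0.54), against 20.4% of all features called higher, and MEP2 and DAL80 kept their calls at log2 fold changes of 0.48 and 0.74 in place of 0.77 and 1.33. PUT1, of proline breakdown, had 23.6, 26.1 and 27.3 RPKM in mms21RINGD and 6.64, 5.45 and 5.89 RPKM in WT (4.28-fold, limma adjusted p = 4.05e-05). GAP1, the general amino acid permease gene, had 116, 113 and 115 RPKM in mms21RINGD and 52.2, 63.8 and 64.5 RPKM in WT, and MEP2, an ammonium transporter gene, had 42.1, 41.03 and 39.9 RPKM in mms21RINGD and 22.1, 24.96 and 23.9 RPKM in WT. DAL80, a repressor gene of the same system, had 4.68, 4.11 and 5.27 RPKM in mms21RINGD and 0.802, 1.77 and 1.31 RPKM in WT. These values came from 73, 80 and 86 reads in mms21RINGD and only 16, 30 and 23 in WT. WT replicate 1 was the highest WT library in 3 of the 8 genes, the lowest in 4 and between the others in 1.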
